A study of Mus musculus with 4 samples.

Results

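Fibroblast growth factors (FGFs) are secreted proteins that bind heparan sulfate and activate receptor tyrosine kinases on the cell surface. Ligand binding pairs receptors, whose kinase domains phosphorylate each other and start the RAS-ERK cascade, which in turn induces feedback inhibitors such as the Sprouty and Spred proteins and the phosphatase gene Dusp6. In brain, FGF signaling acts on astrocytes, neurons and cells of the oligodendrocyte lineage and is a known regulator of astrocyte reactivity after injury. The genes described are 5 ligands (Fgf1, Fgf2, Fgf9, Fgf10 and Fgf18), the 3 kinase receptors Fgfr1, Fgfr2 and Fgfr3, and the receptor-like gene Fgfrl1. They were taken by symbol. All 9 were found among the 22609 gene symbols counted, and all 9 were among the 15011 with enough reads to be tested.

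RNA was sequenced from the hippocampus of ovariectomized female mice after global cerebral ischemia, with both common carotid arteries clipped for 20 min and 24 h of reperfusion. The GFAP-ARO-KO group (n = 2 libraries) carries floxed Cyp19a1, the gene of the estrogen-producing enzyme aromatase, and Cre driven by the promoter of Gfap, an astrocyte gene. The FLOX-control group (n = 2 libraries) is the FLOX line without the knockout and had the same ovariectomy, 1 week before surgery, and the same ischemia. There was no sham group, the age of the mice is not given in the labels, and nothing says whether a library is 1 animal or a pool, so p-values measure only the spread between these libraries. The comparison asks how the loss of astrocyte aromatase bears on the hippocampus after ischemia. Described here is how the genes of FGF signaling differed between the groups.

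Gene reads summed to 34878375 and 27930696 in the GFAP-ARO-KO libraries and to 33495548 and 33235564 in the FLOX-control libraries, and a count of 0 allows a level of up to 0.106 CPM (reads per 1000000 gene reads, after TMM scaling) in the shallowest library. Cyp19a1 gave 1 and 9 reads in GFAP-ARO-KO and 3 and 2 reads in FLOX-control, too few to check the genotype. Hippocampal identity was present, with Prox1, a marker of dentate granule cells, at 64.6 and 64.5 CPM in GFAP-ARO-KO and 44.3 and 39.1 CPM in FLOX-control. Prox1 was itself called higher in GFAP-ARO-KO (log2 fold change 0.63 ± 0.11, edgeR adjusted p = 0.00961), and 4 of 5 dentate granule cell markers rose. The groups thus differed in these markers, and their part in the levels of the FGF genes was not tested. The second GFAP-ARO-KO library stood apart in markers of the meninges and vessel walls. Its 9 meningeal fibroblast markers summed to 470 CPM, against 114 CPM in the first GFAP-ARO-KO library and 105 and 150 CPM in FLOX-control, and its 5 mural markers summed to 281 CPM, against 82.1 CPM and then 57.4 and 64.5 CPM. None of these markers was at 0 in all libraries. The most abundant of each list, Igf2 (adjusted p = 0.338) and Acta2 (adjusted p = 0.201), did not pass edgeR's test. In bulk tissue, fewer cells of a type and less RNA per cell cannot be told apart.

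The 3 kinase receptors are close relatives, so the stretch that encodes the catalytic loop of the kinase is shown for each, because 50-base reads have to tell them apart there. The bases are from the coding strand of NCBIM37 (mm9), 5′ to 3′, and capitals mark the 14 of 50 positions at which the 3 receptors are not all alike.
Fgfr3, chr5:34076996-34077045, plus strand: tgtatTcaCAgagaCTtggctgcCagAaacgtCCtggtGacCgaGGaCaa
Fgfr1, chr8:26682810-26682859, plus strand: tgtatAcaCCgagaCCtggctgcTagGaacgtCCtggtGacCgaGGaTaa
Fgfr2, chr7:137316404-137316453, minus strand: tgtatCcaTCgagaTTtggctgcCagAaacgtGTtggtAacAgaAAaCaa
Fgfr1 differs from Fgfr3 at 6 of these bases and Fgfr2 at 10. Over the longest coding sequence of each, the closest 50-base windows had 3 mismatches between Fgfr1 and Fgfr3, and 4 between Fgfr2 and either of the others. No 50-base window of the annotated protein-coding transcripts of Fgfr1, Fgfr3 or Fgfrl1 occurred in a protein-coding transcript of another gene; other transcripts were not searched, and Fgfr1 shares 125 exonic bases with the lincRNA gene Gm16159 on the opposite strand. The codons of the catalytic loop were found in Fgfr1, Fgfr2 and Fgfr3 and not in Fgfrl1, whose closest window to the Fgfr3 stretch had 27 mismatches. Fgfrl1, with 1590 coding bases against 2409 in Fgfr3, encodes a receptor with extracellular immunoglobulin-like domains but no kinase domain, which binds FGFs without the kinase signal.

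Among the receptors, Fgfrl1 and Fgfr2 fell in GFAP-ARO-KO, Fgfr3 rose, and Fgfr1 did not pass the test. None of the 5 ligands passed. Thus 3 of 9 genes were called by edgeR's quasi-likelihood test at a Benjamini-Hochberg adjusted p under 0.05, where 20.4% of all 15011 tested genes were called (9.39% higher and 11% lower in GFAP-ARO-KO). The median log2 fold change of the 9 was -0.13, against -0.00081 over all genes tested. In 6 of 9 the values of the groups did not overlap, where 64.8% of all tested genes did not overlap either, so the number of separated genes is near the background.

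**Figure D1:**
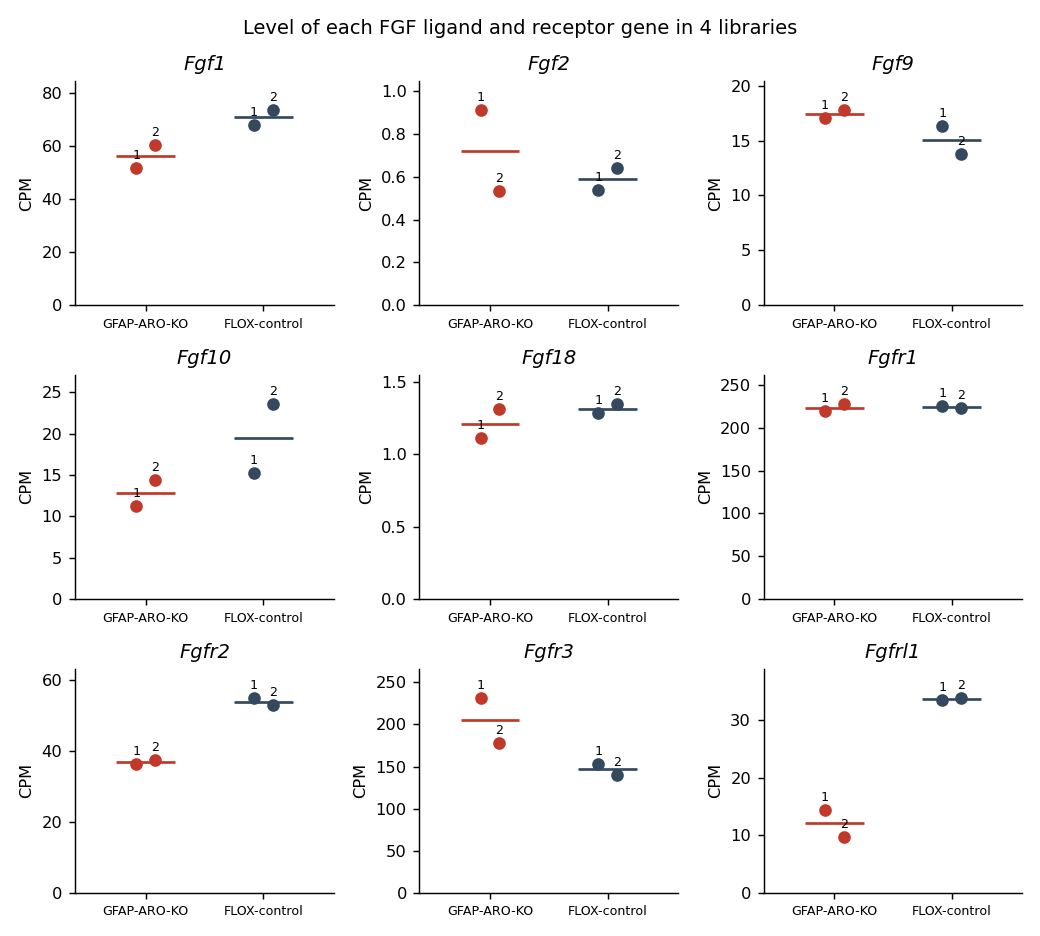
Level in CPM (vertical axis, each panel starting at 0) of each FGF gene, with 1 point per library, numbered by replicate, and a line at the group mean. GFAP-ARO-KO is on the left and FLOX-control on the right; the Fgfrl1 and Fgfr2 points of GFAP-ARO-KO lie below those of FLOX-control, and the Fgfr3 points lie above them.

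Fgfrl1 (chromosome 5, 109123248 to 109135969, plus strand, mm9) gave the largest change of the 9 genes. It was at 14.4 and 9.68 CPM in GFAP-ARO-KO (505 and 273 reads) and at 33.4 and 33.8 CPM in FLOX-control (1118 and 1106 reads). Both GFAP-ARO-KO libraries lay far below both FLOX-control libraries, and the FLOX-control values were close to each other. It was 2.77-fold lower, with a log2 fold change of -1.47 ± 0.18 (SE, edgeR adjusted p = 0.00377). The call held in each of the 13 alternative fits tried, with a log2 fold change from -1.80 to -1.21 when 1 library was left out.

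Fgfr2 (chromosome 7, minus strand), a receptor of astrocytes and the oligodendrocyte lineage, was at 36.3 and 37.6 CPM in GFAP-ARO-KO and at 55.1 and 53.0 CPM in FLOX-control. The libraries of each group lay close together, and the groups did not overlap. It fell by 0.55 ± 0.10 on the log2 scale, or 1.46-fold (edgeR adjusted p = 0.0129). The fall was of similar size without any 1 library (log2 fold change from -0.58 to -0.51), but the call was lost without the first FLOX-control library (adjusted p = 0.110) and without the second (0.0845). Fgfr2 shares 314 exonic bases with Ctbp2 in the annotation, on the same strand, and 4.23% of its 50-base windows occur in transcripts of that gene. Ctbp2, which encodes a transcriptional co-repressor, was at 27.4 and 26.1 CPM in GFAP-ARO-KO and at 35.7 and 40.1 CPM in FLOX-control (log2 fold change -0.50 ± 0.12, edgeR adjusted p = 0.0257), and its part in the Fgfr2 count was not tested. Of 6 markers listed for oligodendrocyte precursors, Olig1, Olig2, Sox10 and Gpr17 fell. Olig1, Olig2 and Sox10 mark the oligodendrocyte lineage and not precursors alone. Pdgfra, at 94.7 and 89.8 CPM in GFAP-ARO-KO and 70.0 and 84.5 CPM in FLOX-control, and Cspg4 (log2 fold change -0.02) did not pass. The 6 had a summed level of 266 and 247 CPM in GFAP-ARO-KO and 363 and 388 CPM in FLOX-control. The most abundant of them, Olig1, fell by 1.05 ± 0.12 (edgeR adjusted p = 0.00307). In the separate list of 6 oligodendrocyte markers, 3 fell and 0 rose. The part of either list in the fall of Fgfr2 was not tested.

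Fgfr3 (chromosome 5, 34064373 to 34079716, plus strand), the FGF receptor most typical of astrocytes, was at 232 and 178 CPM in GFAP-ARO-KO and at 153 and 140 CPM in FLOX-control. Both GFAP-ARO-KO libraries were higher, but the first one by much more than the second. It rose by 0.48 ± 0.14 on the log2 scale, 1.39-fold (edgeR adjusted p = 0.0467), just inside the threshold. Without the first GFAP-ARO-KO library the log2 fold change was 0.28 (adjusted p = 0.0777), and the call was also lost without the first FLOX-control library (0.126) or the second (0.233), under limma-voom (0.0542) and where genes with few reads were kept in (0.0529). Of 10 astrocyte markers, Glul and Gjb6 rose, Aqp4 and Sox9 fell, and the remaining 6, among them the most abundant, Slc1a2, did not pass. None was at 0 in all libraries, and their part in the rise of Fgfr3 was not tested. Their summed level was 5787 and 6318 CPM in GFAP-ARO-KO and 5768 and 6091 CPM in FLOX-control. Gfap itself was at 761 and 709 CPM in GFAP-ARO-KO and 1378 and 1435 CPM in FLOX-control, a fall of 0.94 ± 0.09 (edgeR adjusted p = 0.00151).

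Fgfr1 (chromosome 8, 26624126 to 26686186, plus strand), the receptor most widely expressed in neurons and glia, was at 219 and 228 CPM in GFAP-ARO-KO and at 225 and 222 CPM in FLOX-control. The groups overlapped, and the log2 fold change was -0.0018 ± 0.09 (edgeR adjusted p = 0.991). Its sign turned under several scalings and filters, and stayed between -0.02 and 0.03.

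**Figure D2:**
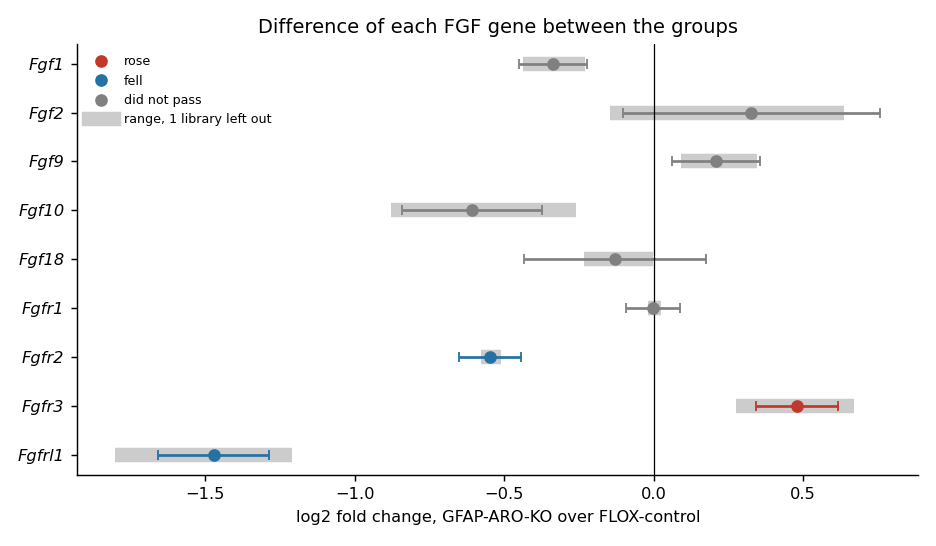
Log2 fold change of each FGF gene (horizontal axis, GFAP-ARO-KO over FLOX-control, 0 marking no difference), with bars of 1 SE and a grey band for the range over the fits that leave out 1 library. Fgfrl1 (-1.47) and Fgfr2 (-0.55) lie left of 0 and Fgfr3 (0.48) right of it; the bands of these 3 genes and of Fgf1, Fgf9, Fgf10 and Fgf18 stay on one side of 0, and those of Fgf2 and Fgfr1 cross it.

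The receptors differed more in makeup than in sum. Their reads added up to 501 and 453 CPM in GFAP-ARO-KO and to 467 and 449 CPM in FLOX-control. Levels of different genes are compared per length of the exon union, in CPM per kb. On that scale Fgfr3 was at 33.7 and 25.8 CPM per kb in GFAP-ARO-KO, around the 27.2 and 28.2 CPM per kb of Fgfr1. In FLOX-control Fgfr3 was at 22.3 and 20.4 CPM per kb, below the 27.9 and 27.6 CPM per kb of Fgfr1. Fgfr3 therefore held 47.5% and 41.3% of the summed per-length receptor level in GFAP-ARO-KO and 31.9% and 30.2% in FLOX-control. Fgfrl1 held 7.63% and 5.83% in GFAP-ARO-KO and 18.01% and 18.86% in FLOX-control, and Fgfr2 held 6.57% and 7.72% against 10.1% and 10.1%. With the longest transcript in place of the exon union, the share of Fgfrl1 was 4.82% and 3.65% in GFAP-ARO-KO and 11.8% and 12.4% in FLOX-control. For these 3 genes the groups did not overlap, whereas the share of Fgfr1, at 38.3% and 45.1% in GFAP-ARO-KO and 39.95% and 40.88% in FLOX-control, did. The shares come from the same counts as the calls above and depend on each other, so their separation is not further evidence. There were 16.1 and 18.4 Fgfr3 reads for each Fgfrl1 read in GFAP-ARO-KO, against 4.59 and 4.14 in FLOX-control, and 6.37 and 4.72 Fgfr3 reads for each Fgfr2 read, against 2.78 and 2.65. Shares and ratios of 2 against 2 libraries are given without a test, since an exact permutation test cannot go below p = 0.333 here. Isoforms of a receptor, which decide the ligands it binds, are summed in these gene counts.

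**Figure D3:**
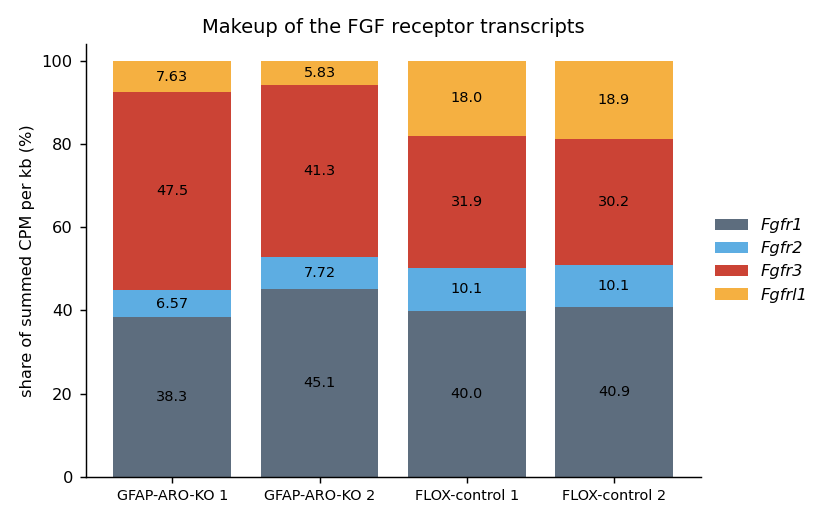
Share of each receptor gene in the summed CPM per kb of exon union (vertical axis, percent), 1 stacked bar per library. In both GFAP-ARO-KO libraries, on the left, the Fgfr3 segment is taller and the Fgfrl1 and Fgfr2 segments shorter than in the FLOX-control libraries.

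The annotated promoters of the 2 receptor genes that fell differ in base composition. Which starts these genes use in the hippocampus was not tested. The RefSeq sequences (GRCm38.p6) of the 250 bases before their annotated starts are shown 5′ to 3′ on the gene's strand, with motif matches in capitals.
Fgfrl1, chr5:108693979-108694228, plus strand: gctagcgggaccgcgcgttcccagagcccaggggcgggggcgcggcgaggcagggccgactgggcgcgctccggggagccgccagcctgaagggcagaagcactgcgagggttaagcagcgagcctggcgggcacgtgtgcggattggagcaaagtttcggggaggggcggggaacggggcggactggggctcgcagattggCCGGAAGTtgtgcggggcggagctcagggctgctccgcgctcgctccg
Fgfr2, chr7:130266809-130267058, minus strand: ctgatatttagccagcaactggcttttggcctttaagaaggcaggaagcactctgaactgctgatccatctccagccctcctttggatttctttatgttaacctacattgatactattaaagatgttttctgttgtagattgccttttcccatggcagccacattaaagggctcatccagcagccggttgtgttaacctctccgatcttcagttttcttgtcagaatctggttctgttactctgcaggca
The Fgfrl1 window has 73.6% GC and 30 CpG dinucleotides, and the Fgfr2 window has 44.0% GC and 2, against medians of 52.4% and 6 over 32851 RefSeq promoters. Both strands were searched for 4 motifs. CCGGAAGT, bound by ETS factors, was found once, in Fgfrl1, and in 2.88% of all promoters. The STAT motif TTCNNNGAA (7.02% of all promoters), the AP-1 motif TGANTCA (6.75%) and the palindromic estrogen response element (0.06%) were in neither window. Promoter sequences were matched for 7 of the 9 genes, in 8 windows, and Fgfr3 had 2, with 66.8% and 72.8% GC and none of the 4 motifs. A match is a match of letters and not a shown binding site.

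The ligands spanned a wide range of levels. Fgf1, an FGF without a classical secretion signal that binds all FGF receptors, was the most abundant of the 5, at 11.15 and 12.97 CPM per kb in GFAP-ARO-KO and 14.6 and 15.8 CPM per kb in FLOX-control. Fgf9 followed at 3.99 and 4.16 CPM per kb in GFAP-ARO-KO and 3.82 and 3.23 in FLOX-control. In FLOX-control these overlapped with the values of Fgf10, which was at 2.44 and 3.12 CPM per kb in GFAP-ARO-KO and 3.32 and 5.13 in FLOX-control. Fgf18 lay near 1, at 0.936 and 1.11 CPM per kb in GFAP-ARO-KO and 1.08 and 1.13 in FLOX-control, and Fgf2 was lowest, at 0.506 and 0.295 against 0.298 and 0.356.

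Fgf1 (chromosome 18, 38998327 to 39089058, minus strand) was at 51.8 and 60.3 CPM in GFAP-ARO-KO and at 68.0 and 73.5 CPM in FLOX-control. The groups did not overlap, but the log2 fold change of -0.34 ± 0.11 did not pass (edgeR adjusted p = 0.0761). It passed without the second GFAP-ARO-KO library (log2 fold change -0.44, adjusted p = 0.0312). Fgf1 lies in the span of Arhgap26 on the opposite strand, with no exonic base in common, and Arhgap26, a GTPase regulator, fell by 0.63 ± 0.10 (edgeR adjusted p = 0.00708).

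Fgf10 (chromosome 13, 119458598 to 119580922, plus strand), best known as a mesenchymal ligand of the epithelial form of Fgfr2, was at 11.2 and 14.4 CPM in GFAP-ARO-KO and at 15.3 and 23.6 CPM in FLOX-control. The second FLOX-control library was well above the other 3, which lay within a narrower range. The log2 fold change was -0.61 ± 0.23 (edgeR adjusted p = 0.111), at -0.26 without the second FLOX-control library and -0.88 without the first. Fgf9 (chromosome 14, 58689384 to 58731174, plus strand), a ligand made by neurons and glia, was at 17.0 and 17.8 CPM in GFAP-ARO-KO and 16.3 and 13.8 CPM in FLOX-control, and its log2 fold change of 0.21 ± 0.15 did not pass (edgeR adjusted p = 0.341).

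The other pair of ligands had few reads. Fgf18 (chromosome 11, 33017430 to 33047400, minus strand), a ligand with a preference for Fgfr3, gave 39 and 37 reads in GFAP-ARO-KO and 43 and 44 in FLOX-control, with a log2 fold change of -0.13 ± 0.31 (edgeR adjusted p = 0.793). Fgf2 (chromosome 3, 37211441 to 37304299, plus strand), basic FGF, which is induced in reactive astrocytes, gave 32 and 15 reads in GFAP-ARO-KO and 18 and 21 in FLOX-control. The log2 fold change of 0.33 ± 0.43 (edgeR adjusted p = 0.621) turned to -0.15 without the first GFAP-ARO-KO library, the only one above the rest. Fgf2 overlaps the antisense gene Nudt6 by 242 exonic bases, and 12.5% of its 50-base windows occur in Nudt6 transcripts on one strand or the other. Nudt6 rose by 1.51 ± 0.24 (edgeR adjusted p = 0.00685), with 228 and 146 reads in GFAP-ARO-KO and 71 and 65 in FLOX-control. How the counting treated strand is unknown here, so within the shared bases reads of Fgf2 and Nudt6 cannot be told apart. Fgf2 also shares 55 exonic bases with Cetn4 and 32 with Bbs12, neither of which passed (edgeR adjusted p = 0.303 and 0.239).

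Around the 9 genes, 51 of the 61 other pathway genes counted could be tested, of which 4 rose, 11 fell and 36 did not pass. These 15 calls among 51 genes stand beside the 20.4% called over all genes tested, and 7 of them belong to 1 list, the feedback genes. The symbol Hras was not among those counted, so this gene was not analysed here. Among the FGF genes outside the 9, not all of which encode ligands of FGF receptors, of 9 tested 1 rose and 1 fell. Fgf11, an intracellular FGF homologous factor that acts on sodium channels and not on FGF receptors, was at 4.30 and 3.33 CPM in GFAP-ARO-KO and at 12.96 and 10.18 CPM in FLOX-control. It fell by 1.59 ± 0.22 (edgeR adjusted p = 0.00448) and was called without any 1 library. The hormone-like ligand Fgf23 gave 19 and 23 reads in GFAP-ARO-KO and 6 and 3 in FLOX-control (log2 fold change 2.26 ± 0.59, edgeR adjusted p = 0.0339), a call lost without the second GFAP-ARO-KO library (adjusted p = 0.105) or the first or second FLOX-control library (0.126 and 0.224), or with DESeq2 (0.118). Fgf5 had a log2 fold change of 0.52 ± 0.22 (edgeR adjusted p = 0.128).

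Of 12 tested co-receptors and FGF-binding proteins 1 rose, 1 fell and 10 did not pass. Fgfbp3, a secreted carrier that releases FGFs from heparan sulfate, was at 8.002 and 12.62 CPM in GFAP-ARO-KO and at 2.63 and 2.75 CPM in FLOX-control. It rose by 1.92 ± 0.28 (edgeR adjusted p = 0.00524), with both GFAP-ARO-KO libraries above both FLOX-control libraries and the call kept without any 1 library. Its relative Fgfbp1 was at 0.740 and 4.54 CPM in GFAP-ARO-KO and at 0.119 and 0.214 CPM in FLOX-control (log2 fold change 3.87 ± 1.30, edgeR adjusted p = 0.0949). It passed with DESeq2 (adjusted p = 7.32e-05), edgeR's legacy estimation (0.0391), the replicate number as a block (0.000649) and without the first GFAP-ARO-KO library (2.02e-05), while leaving out the second gave a log2 fold change of 2.14 (0.0584). The second GFAP-ARO-KO library, which also held the most meningeal and mural markers, was far above the first, and the part of those markers was not tested. Flrt2, a membrane protein that binds FGF receptors, fell by 0.50 ± 0.12 (edgeR adjusted p = 0.0288), a call lost without the first or the second FLOX-control library (0.123 and 0.154). Fgfr4, the remaining kinase receptor, gave 4 and 4 reads in GFAP-ARO-KO and 2 and 5 in FLOX-control and was not tested.

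Of 18 tested genes of the adaptors and the ERK cascade, 2 rose, 2 fell and 14 did not pass. The kinase gene Map2k2 fell by 0.64 ± 0.11 (edgeR adjusted p = 0.0106) and the docking protein gene Gab1 by 0.58 ± 0.12 (adjusted p = 0.0182), while the phosphatase gene Ptpn11 rose by 0.35 ± 0.09 (adjusted p = 0.0323) and the kinase gene Braf by 0.37 ± 0.10 (adjusted p = 0.0438). All 4 calls were lost when either FLOX-control library was left out (adjusted p from 0.0524 for Map2k2 to 0.256 for Braf), and that of Braf also without the second GFAP-ARO-KO library (0.0918).

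The feedback inhibitors and targets of the pathway held 7 genes of 12 tested that fell in GFAP-ARO-KO, 0 that rose and 5 that did not pass, where 11% of all tested genes fell and 9.39% rose. Their median log2 fold change was -0.52. The list was set up with earlier results of these libraries known, so its direction is not independent evidence. Spry2, an inhibitor of receptor signaling, was at 35.4 and 31.6 CPM in GFAP-ARO-KO and at 66.7 and 60.1 CPM in FLOX-control, and Dusp6, the ERK phosphatase, was at 38.5 and 34.7 against 82.3 and 63.2 CPM. Spred1, which keeps RAS inactive, fell by 0.60 ± 0.12 (edgeR adjusted p = 0.0155), at 65.3 and 74.9 CPM in GFAP-ARO-KO and 114 and 97.9 CPM in FLOX-control. The ETS factor Etv5, at 45.6 and 46.9 CPM in GFAP-ARO-KO and 67.1 and 59.2 CPM in FLOX-control, fell by 0.45 ± 0.11 (edgeR adjusted p = 0.0280). Spry4, Spred3 and Etv1 fell by 0.67, 0.51 and 0.54. Etv4 was at 8.51 and 6.24 CPM in GFAP-ARO-KO and 11.5 and 10.6 CPM in FLOX-control and did not pass (edgeR adjusted p = 0.0758), though it passed without the first GFAP-ARO-KO library (log2 fold change -0.82, adjusted p = 0.00782). The call of Spry4 was lost without the second GFAP-ARO-KO library (adjusted p = 0.0566). The receptor antagonist gene Il17rd had a positive log2 fold change of 0.46 ± 0.15, which missed the threshold (edgeR adjusted p = 0.0725). Without the first FLOX-control library only Dusp6 and Spry2 of the 7 were called, and without the second only these and Spred1. Markers of several cell types fell as well, but not of all. Of 5 dentate granule cell markers 4 rose and 0 fell, and of 10 astrocyte markers 2 rose and 2 fell. Of 8 microglial markers 7 fell, including the most abundant, Csf1r, and 1 did not pass. Their summed level was 176 and 162 CPM in GFAP-ARO-KO and 329 and 366 CPM in FLOX-control, with none at 0 in all libraries. In the oligodendrocyte precursor list 4 of 6 fell and in the oligodendrocyte list 3 of 6, with 0 rising in either. The part of these markers in the fall of the feedback genes was not tested.

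**Figure D4:**
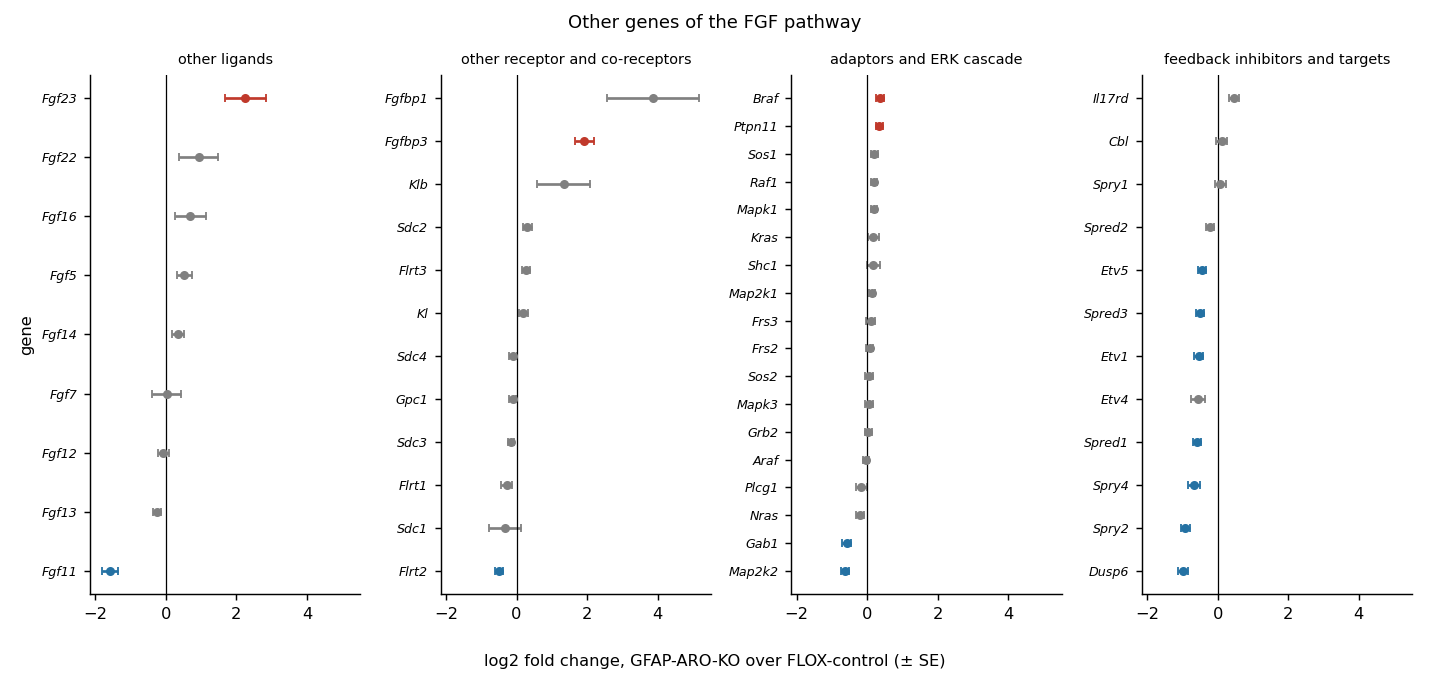
Log2 fold change with its SE (horizontal axis, GFAP-ARO-KO over FLOX-control) of the tested genes in 4 lists of other FGF pathway genes, red where a gene rose, blue where it fell and grey where it did not pass. In the list of feedback inhibitors and targets, 7 of 12 genes are blue and none is red, while the ERK cascade holds 2 of each among 18.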

How the data were processed

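The deposited files hold raw read counts per gene symbol, 1 file per library, for 2 GFAP-ARO-KO and 2 FLOX-control libraries of hippocampal RNA read as 50-base single ends, per the labels' protocols. Per the submitters' processing notes, the authors used bcl2fastq, TopHat2 2.0.8b on mm9, and HTSeq. Not given in the sources used here are the annotation and the strand setting. The series' design text says that duplicate runs were combined. The 5 tally rows that name no gene (45.17% to 47.3% of all entries per library) stayed out of library sizes and tests.

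CPM was computed with TMM factors (0.9837 to 1.01). Genes were kept by filterByExpr (minimum count 10, minimum total count 15) and fitted over the whole table with edgeR 4.0.16 in R 4.3.3 (glmQLFit with legacy=FALSE and robust estimation, glmQLFTest), with Benjamini-Hochberg adjustment over 15011 genes and a threshold of 0.05. SEs were derived from the F statistic, as the absolute estimate over its square root. Lengths, coordinates and overlaps come from NCBIM37, the assembly behind mm9, with GENCODE vM1. Fgfr2's annotated span there covers many genes, of which only the one that shares exonic bases is named. The floor for a count of 0 is 3 counts and covers counting error only.

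The members and lists were chosen with earlier results of these data known. Named are the 9 genes, Gfap and Cyp19a1, the 3 smallest p of each pathway list, Spry2, Dusp6, Etv4, Etv5 and Fgfr4, overlapping genes, and, of each cell type list, the most abundant tested marker. Prox1, Spry4, Spred3, Etv1, Braf, Il17rd and the other astrocyte and precursor markers named lie outside that rule and were chosen with values in view. Alternatives were other scalings, filters and estimation, limma-voom (limma 3.58.1), DESeq2 1.42.0, a replicate block, and leaving out each library. Counts of same-group libraries were compared by chi-square, which over its degrees of freedom was 22.9 in GFAP-ARO-KO and 12.4 in FLOX-control, above counting noise.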

Additional observations from a re-analysis of the deposited data

How the results depend on the processing

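Fgfrl1 kept its direction and its call in all 13 alternative fits, and Fgfr2 in all but the 2 that left out a FLOX-control library. With 1 library left out, the count of FGF genes past the threshold ran from 1 to 4 (3 as reported), with 0 to 1 higher and 1 to 3 lower. Over all genes it ran from 813 to 4821, with 296 to 2388 higher and 517 to 2433 lower. Over the other pathway genes it ran from 4 to 24, with 1 to 10 higher and 3 to 14 lower, and over the feedback list from 2 to 8, with 2 to 8 lower. Log2 fold changes ran from -0.438 to -0.231 for Fgf1, -0.147 to 0.636 for Fgf2, -0.0184 to 0.025 for Fgfr1, -0.577 to -0.512 for Fgfr2 and 0.276 to 0.668 for Fgfr3. Fgfr3 narrowly missed the threshold with no filter on low counts (log2 fold change 0.483, edgeR adjusted p = 0.0529). It also did so with limma-voom (log2 fold change 0.471, limma-voom adjusted p = 0.0542). In both of these fits 0 FGF genes rose. Fgfr1 turned positive with RLE factors (0.00312), upper-quartile scaling (0.0226), no filter (0.000456) and a stricter filter (0.00538). With the longest transcript as length, the share difference was -3.77 percentage points for Fgfr2 and -7.89 for Fgfrl1, against -2.95 and -11.7 as reported. Igf2, a meningeal marker, ran from -0.171 without the second GFAP-ARO-KO library to 2.84 without the first. The cause of these changes was not tested. Where 1 library was left out, the fit also rested on fewer libraries. Same-numbered libraries did not deviate together (r = -0.0165 across 15011 genes). With 2 libraries a group, this check cannot decide whether same-numbered libraries share a batch. With the replicate number as a block 3194 genes were called, 4 of them FGF genes, Fgf10 being added (-0.58, edgeR adjusted p = 0.0334). Fgf2 (15 to 32 reads a library) and Fgf18 (37 to 44) had the largest SEs of the 9 genes, 0.43 and 0.31.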

Other observations

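In the dentate granule cell list, 4 of 5 markers rose, 0 fell, and the most abundant, Calb1, did not pass (edgeR adjusted p = 0.308). Of 6 oligodendrocyte markers 3 fell and 0 rose, with Mbp not passing (edgeR adjusted p = 0.215). Of 8 neuronal markers 1 fell and 0 rose, with Camk2a not passing (edgeR adjusted p = 0.188). Of 6 endothelial markers 1 rose and 2 fell, among them Slco1c1, a thyroid hormone transporter (log2 fold change -1.39 ± 0.13, edgeR adjusted p = 0.00133). Of 5 tested choroid plexus markers 2 rose, with Kl not passing (edgeR adjusted p = 0.324). Among mural markers 1 of 5 rose, and among meningeal fibroblast markers 0 of 9 passed, with 0 at an unadjusted p under 0.05.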
